A study of Macaca mulatta with 4 samples.

Results

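Teneurins, latrophilins and FLRT proteins are a set of cell surface proteins that bind one another across the gap between neighbouring cells. The genes described here are the 4 teneurins TENM1, TENM2, TENM3 and TENM4, the 3 latrophilins ADGRL1, ADGRL2 and ADGRL3, and the 3 FLRT genes FLRT1, FLRT2 and FLRT3. They were chosen by symbol, and each of these 10 genes had 1 row among the 30807 gene rows of the matrices. Unique molecular identifiers (UMIs) were found for 9 of the 10.

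Nuclei came from flash-frozen cerebellum of rhesus macaque (Macaca mulatta) fetuses late in gestation. By the protocol the tissue was cerebellar hemisphere, and by the methods part of the vermis was included. Each fetus gave 1 library of single-nucleus RNA-seq (10x Genomics 3′ chemistry), so that 2 Control libraries stand against 2 LPS libraries. The Control female and the Control male fetus were sampled at 130 days of gestation and are labelled as without intervention. The LPS female fetus was sampled at 131 days and the LPS male fetus at 133 days, both 5 days after 1 mg of lipopolysaccharide was injected into the amniotic fluid, a model of chorioamnionitis. Age and treatment therefore differ together, and each sex within a group is 1 fetus.

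Teneurins are large adhesion proteins that cross the membrane once and show most of their length to the outside. Their best known receptors are the latrophilins, adhesion G-protein-coupled receptors first found as targets of alpha-latrotoxin from black widow venom. FLRT proteins carry leucine-rich repeats and bind both latrophilins and the UNC5 netrin receptors. Complexes of these proteins are known for the choice of synaptic partners and for attraction and repulsion of migrating neurons. In the late fetal cerebellum granule cells leave their outer layer, migrate inward and form parallel fibre synapses on Purkinje cells.

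Nuclei, taken as barcodes in which 500 genes or more were seen and mitochondrial UMIs made up no more than 5%, numbered 9250 in Control female, 8621 in Control male, 6890 in LPS female and 7804 in LPS male. They held 45575429, 20117750, 30782755 and 22014309 UMIs, with a median of 4508, 1882, 4063 and 2308 per nucleus in the same order, which is used for all values of 4 libraries in the text. Any pair of libraries shared between 16 and 21 barcodes. The mitochondrial share was 0.2644 and 0.2124% in the female libraries and 0.02141 and 0.03178% in the male libraries, so that sex, depth and this share move together. The LPS male library stood apart from the rest. Of its UMIs 38.67% were in nuclei, against 58.68 to 73.92% in the others, and 1884 of the 2415 nuclei of an unnamed low-UMI cluster were its own. Free RNA was estimated at 8.14, 11.9, 6.86 and 19.3% of the UMIs of the granule lineage.

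Levels are given as CPM, the UMIs of a gene per 1000000 UMIs summed over all nuclei of a class or stage in a library. They are compared between classes, stages and libraries for 1 gene at a time, never between genes. Clustering without these genes gave 23 clusters, of which 2 were left unnamed. The markers of each class were found in its cluster, for instance 12564 to 17644 CPM for the summed list of the granule lineage and 18363 to 22122 CPM for that of Purkinje cells. In the cluster named after choroid and ependymal cells the 13 LPS male nuclei held 56.9 CPM of the choroid list, against 9913 to 15894 CPM in the other libraries, so that they go against the name. An order of levels was made over the 12 classes with at least 10 nuclei in every library. Such an order is a description of clusters and was not tested. Of 99 pairs of neighbouring classes in these orders, 3 had ranges over the 4 libraries that did not overlap.

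TENM4, a teneurin known from oligodendrocyte differentiation, had 0 UMIs in the nuclei and in the empty droplets of every library. A count of 0 allows up to 0.0658, 0.149, 0.0975 and 0.136 CPM in the 4 libraries, and up to 0.0253 CPM over all of them. These limits take 3 counts and cover counting error only. The row was 1 of 7970 gene rows without a UMI in nuclei, and whether reads of the gene were lost in counting was not tested. No further value can be given for TENM4, and 9 genes are described from here on.

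TENM1, the X-linked teneurin, was highest in the granule lineage, with 567, 345, 465 and 610 CPM. This was the highest of the ordered classes in 4 of 4 libraries. Among the other classes, interneuron cluster 16 followed with 361, 168, 211 and 276 CPM and overlapped the granule range. Purkinje cells were lowest by the mean, at 17.9, 12.8, 39.4 and 114 CPM, although proliferating glia were lower in both LPS libraries and endothelial cells and interneuron cluster 18 in LPS male. The difference between Purkinje cells and the granule lineage was -3.88 ± 1.15 on the log2 scale (SD, n = 4). Empty droplets held 212, 280, 97 and 544 CPM of TENM1, and after the estimated free RNA was subtracted Purkinje cells were left with 1.75, 0, 34.6 and 9.88 CPM. Unipolar brush cells, which had only 8 nuclei in Control male and were not ordered, had 495, 214, 609 and 482 CPM, above the granule lineage in LPS female.

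TENM2, the teneurin first described as a ligand of latrophilin 1, had 2282, 1659, 1896 and 1164 CPM in the granule lineage. Purkinje cells had 887, 995, 2671 and 1327 CPM. The granule lineage was thus highest in both Control libraries and Purkinje cells in both LPS libraries, and the ranges overlapped. Endothelial cells were lowest by the mean, with 172, 289, 79.7 and 82 CPM, although in Control male Bergmann glia and proliferating glia were lower. Empty droplets held 2413, 2707, 647 and 4753 TENM2 UMIs among 2776258, 1694177, 1556779 and 3870312 in all. This was a larger share than in endothelial nuclei of every library, and than in granule nuclei of LPS male.

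TENM3, a teneurin known for the wiring of hippocampal and visual circuits, was highest in Purkinje cells, with 1670, 1652, 2378 and 358 CPM. This held among the ordered classes in 4 of 4 libraries, although the LPS male value lay far under the rest. It rests on 15 nuclei and 44 UMIs, with an exact 95% interval of 260 to 481 CPM for counting error alone. The granule lineage came next by the mean with 310, 374, 405 and 151 CPM. Interneuron cluster 18 was above it in Control female, and all 3 ordered interneuron classes were above it in LPS male. Among the ordered classes endothelial cells were again lowest by the mean, between 16.6 and 56 CPM. In mural cells, 31 nuclei in all, no TENM3 UMI was found. Empty droplets held 527, 702, 267 and 744 TENM3 UMIs among 2776258, 1694177, 1556779 and 3870312 in all. This was a larger share than in granule nuclei of both male libraries.

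Among the latrophilins, ADGRL1, which binds a contactin beside teneurins, had its highest mean in interneuron cluster 16, at 104, 148, 79.2 and 187 CPM. Purkinje cells followed among the ordered classes with 58.5, 187, 74.4 and 163 CPM, and each class in the order overlapped the next. Unipolar brush cells, not ordered, had a female mean of 72.9 and a male mean of 178 CPM, against 66.4 and 175 CPM in Purkinje cells. Among the ordered classes, microglia and macrophages were lowest in 4 of 4 libraries with 6, 9.55, 15 and 65.9 CPM, from 2, 2, 4 and 12 UMIs.

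ADGRL2, a latrophilin of the receiving side of hippocampal synapses, was highest in endothelial cells, with 769, 504, 1013 and 543 CPM. Purkinje cells had 331, 402, 696 and 138 CPM, second in 4 of 4 libraries. Fibroblasts followed at 63.8 to 153 CPM and the granule lineage at 59.1 to 91.1 CPM. Astrocytes, Bergmann glia, oligodendrocytes and proliferating glia lay between 11.4 and 29.7 CPM, under the 51.4 to 85 CPM of empty droplets. ADGRL4, a relative known from blood vessels, had 941, 602, 847 and 512 CPM in endothelial cells and no UMI in Purkinje cells. The Purkinje level was thus seen for ADGRL2 and not for ADGRL4.

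ADGRL3, a latrophilin linked by genetics to attention deficit, was broad. Interneuron cluster 18 had 2217, 1044, 2206 and 989 CPM, oligodendrocytes 2002, 1280, 1925 and 829 CPM, and Bergmann glia, the radial glia along which granule cells migrate, 2010, 1025, 1798 and 1009 CPM. The granule lineage had 1835, 982, 1888 and 946 CPM. The ranges of these 4 classes overlapped, although within each library interneuron cluster 18 was above the granule lineage, by 0.16 ± 0.10 on the log2 scale (SD, n = 4). Unipolar brush cells, not ordered, had 2531, 1026, 2612 and 877 CPM, the highest mean of all. Among the ordered classes Purkinje cells were lowest by the mean with 362, 225, 591 and 440 CPM. Empty droplets held 1193, 1175, 642 and 1411 CPM, more than Purkinje nuclei in every library. In both male libraries they also held more than the granule lineage, Bergmann glia, interneuron cluster 18 and unipolar brush cells. In LPS male they held more than oligodendrocytes as well. Subtraction of free RNA left 286, 94.9, 579 and 208 CPM in Purkinje cells and 1892, 956, 1980 and 834 CPM in the granule lineage.

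FLRT1 was sparse, with 643 UMIs in all nuclei. Interneuron cluster 18 had 9.54, 91, 23.4 and 103 CPM, from 6, 36, 14 and 13 UMIs. Oligodendrocytes had 28.2, 67.5, 38.4 and 39.4 CPM, from 24, 21, 22 and 31 UMIs, while no FLRT1 UMI was found in endothelial cells. Oligodendrocytes were above interneuron cluster 16, the next class, in 4 of 4 libraries.

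FLRT2, a ligand of UNC5D that repels migrating neurons, stood apart in fibroblasts. They had 2018, 2134, 1709 and 1596 CPM, and interneuron cluster 18, the next class, 367, 415, 410 and 324 CPM. The ranges did not overlap, and the ratio of the means was 4.92. Endothelial cells had 327, 420, 379 and 246 CPM, above the 176, 203, 215 and 115 CPM of the granule lineage. Purkinje cells were lowest by the mean, between 17.9 and 48.1 CPM, under the 138 to 291 CPM of empty droplets.

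FLRT3, which binds latrophilin 3 and UNC5 receptors, was highest in the granule lineage among the ordered classes of 4 libraries, with 47.6, 32.9, 70.7 and 26.9 CPM. Unipolar brush cells had 27.5, 0, 59.4 and 37.9 CPM, from 5, 0, 4 and 7 UMIs, and were above it in LPS male. Fibroblasts followed with 42.8, 13.4, 29.7 and 16 CPM. All other ordered classes had means between 6.069 and 15.71 CPM. Empty droplets held 76.4, 16.5, 109 and 18.3 CPM, above the granule nuclei in the female libraries and below them in the male libraries. By the RefSeq annotation of assembly T2T-MMU8v2.0, FLRT3 lies within MACROD2, FLRT1 within MACROD1 and FLRT2 overlaps LOC114679611. The counts include introns, and whether reads of both partners were told apart by strand is not given in the sources used here. MACROD2 had 1531, 1141, 1487 and 1169 CPM in the granule lineage and a mean of 2701 CPM in Purkinje cells, the class with the highest MACROD2 mean, where FLRT3 had at most 19.7 CPM.

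**Figure D1:**
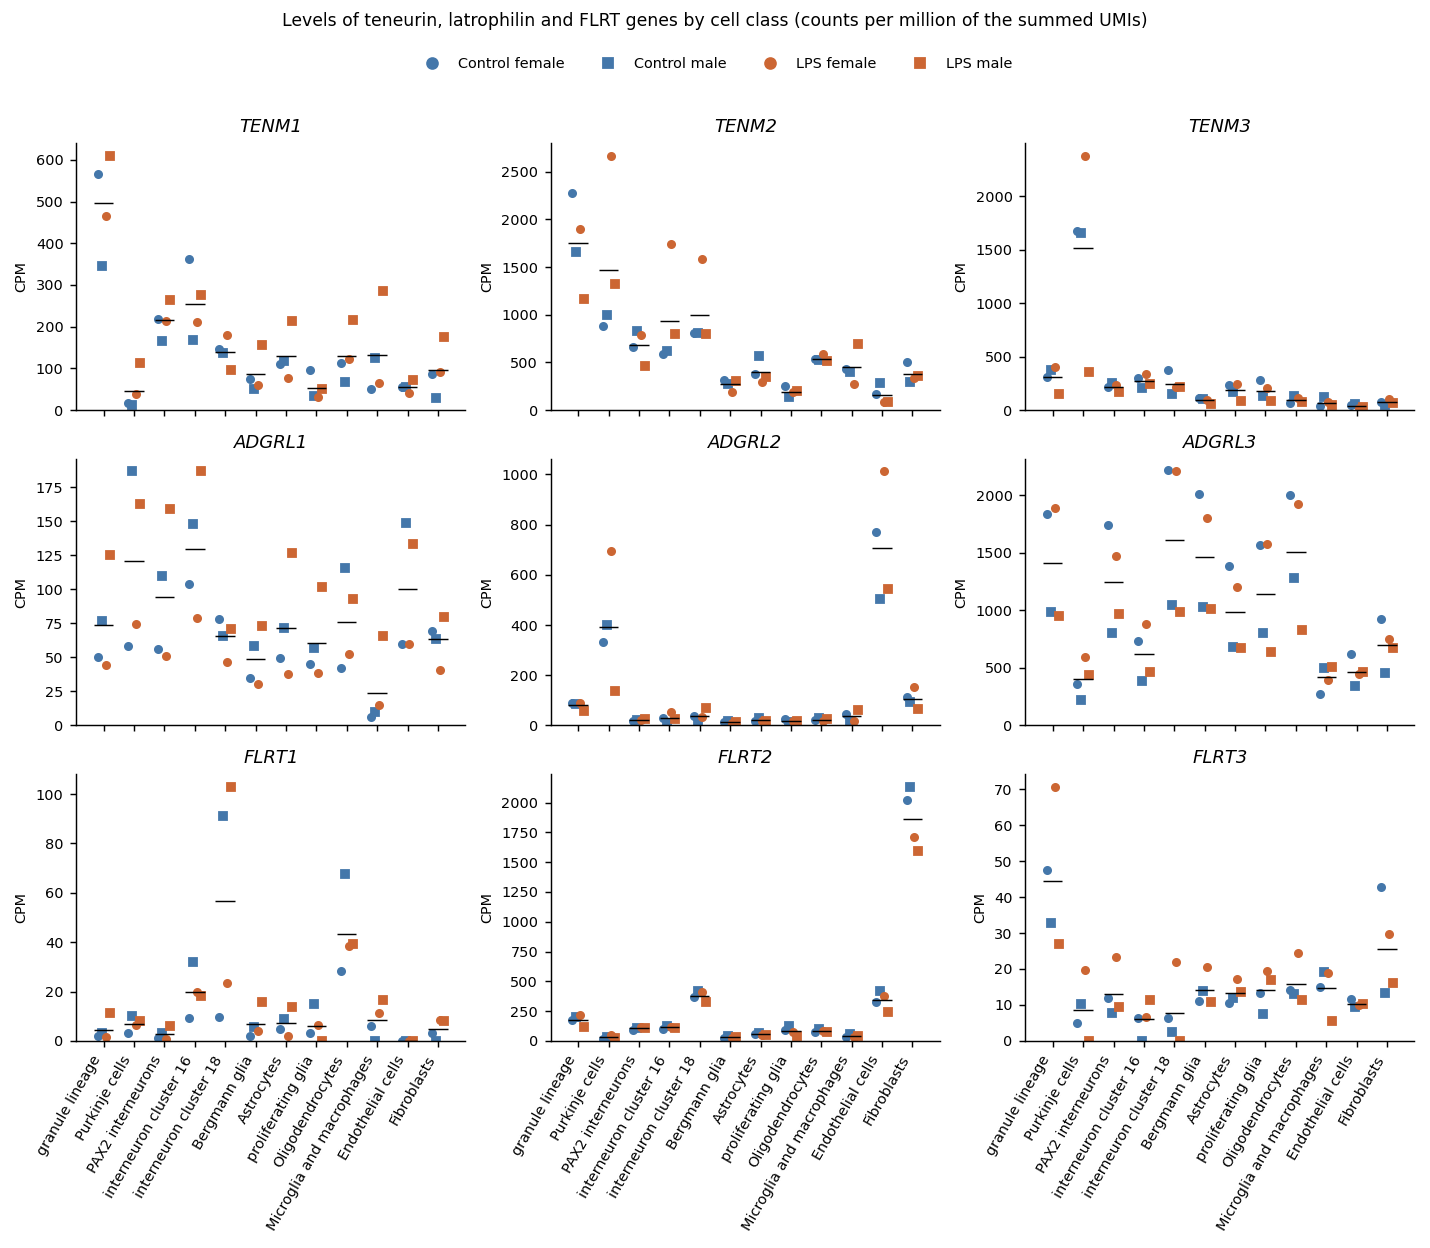
Level of each gene (CPM, linear axis from 0) in 12 cell classes, with 1 point for each library (blue Control, orange LPS, circles female, squares male) and a bar at the mean of the 4 libraries. FLRT2 in fibroblasts (1596 to 2134 CPM), ADGRL2 in endothelial cells (504 to 1013 CPM) and TENM3 in Purkinje cells (358 to 2378 CPM) stand above all other classes by their means, while ADGRL3 is spread over most classes.

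Within the granule lineage 7 stages were set apart by their markers: proliferating precursors, committing, migrating, maturing and 2 mature clusters led by NELL1 and RAB37. One more, granule cluster 2, is given by its number because none of its 10 leading genes was a stage marker, although the maturing list was its highest. Of 54 pairs of neighbouring stages in the orders of levels, 4 had ranges that did not overlap, all of TENM2 or FLRT2.

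TENM2 was low before the granule cells mature and high from then on. Committing cells had 147, 271, 114 and 307 CPM and migrating cells 225, 376, 221 and 361 CPM. In every library these levels lay under that of empty droplets. Maturing cells had 3707, 2690, 3296 and 1733 CPM. The lowest maturing library was above the highest library of every earlier stage. Maturing exceeded committing cells by 3.82 ± 1.12 on the log2 scale (SD, n = 4), in 4 of 4 libraries, and by 5.04 ± 0.58 after free RNA was subtracted. Mature NELL1 cells were higher still in each library, with 4588, 3480, 4598 and 1899 CPM, and mature RAB37 cells had 3000, 2536, 3121 and 1152 CPM. Granule cluster 2 lay between, at 667 to 761 CPM, and overlapped neither neighbour in the order.

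FLRT2 ran the other way. It had 463, 415, 475 and 334 CPM in proliferating precursors and 525, 496, 488 and 381 CPM in committing cells. Migrating cells had 291, 270, 274 and 211 CPM. This was a step of -0.85 ± 0.02 on the log2 scale from committing to migrating cells (SD, n = 4), close to the same size in each library. Granule cluster 2 had 169, 201, 232 and 135 CPM and maturing cells 39.8, 70.2, 70.6 and 57.3 CPM, with no overlap. From committing to maturing cells the difference was -2.99 ± 0.46, and -3.54 ± 0.49 after free RNA was subtracted. Mature NELL1 cells had 19.6, 45, 36 and 28.5 CPM.

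UNC5D, the FLRT2 receptor of migrating cortical neurons, also differed between these stages. It had 1283, 813, 1564 and 1630 CPM in committing cells and 51.4, 68, 42.3 and 422 CPM in migrating cells. The stages did not overlap, and the LPS male library was highest in both. In mature NELL1 cells, where FLRT2 had its lowest mean, UNC5D had 860, 243, 376 and 611 CPM. In each library this lay between its migrating and its committing level. Empty droplets held 227, 349, 120 and 927 CPM of UNC5D, more than migrating cells in every library and than mature NELL1 cells in the male libraries. UNC5A, a further FLRT receptor, differed the other way, with 16.7, 73.7, 11.3 and 12.2 CPM in committing cells and 30, 116, 31.1 and 27.4 CPM in migrating cells, where it was higher in each library.

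ADGRL3 was higher from the migrating stage on. Committing cells had 1199, 646, 1131 and 735 CPM and migrating cells 2193, 1069, 2133 and 1237 CPM. The difference was 0.82 ± 0.09 on the log2 scale (SD, n = 4), and it was positive in 4 of 4 libraries, although ranges over all libraries overlapped. Later stages kept means between 1412 and 1594 CPM. ADGRL3 and FLRT2 thus differed in opposite directions between committing and migrating cells, each in every library.

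TENM1 was higher in later stages too, with smaller differences. Proliferating precursors had 307, 206, 264 and 292 CPM, maturing cells 693, 425, 586 and 651 CPM and mature NELL1 cells 852, 495, 740 and 796 CPM. Mature NELL1 cells exceeded precursors by 1.42 ± 0.10 on the log2 scale (SD, n = 4). Mature RAB37 and mature NELL1 cells did not differ beyond their spread for this gene.

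TENM3 was high at both ends in Control male and LPS female. Proliferating precursors had 536, 342, 511 and 300 CPM, granule cluster 2 had 146, 160, 206 and 121 CPM and maturing cells 368, 536, 489 and 211 CPM. Precursors exceeded granule cluster 2 by 1.39 ± 0.33 and maturing cells exceeded it by 1.28 ± 0.38 on the log2 scale (SD, n = 4), each in 4 of 4 libraries. After free RNA was subtracted these differences were 1.56 ± 0.28 and 1.45 ± 0.49. Granule cluster 2 lay under the level of empty droplets in all libraries but LPS female, as did precursors in Control male. In mature RAB37 cells the libraries split, with 144, 472, 494 and 71.7 CPM. Control female and LPS male were low there, and Control male and LPS female were high, so neither group nor sex sorted them.

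FLRT3 was higher early than late. Committing cells had 72.1, 51.8, 88.1 and 47.7 CPM and mature NELL1 cells 17.6, 10.3, 28.3 and 23.6 CPM, a difference of 1.70 ± 0.54 on the log2 scale (SD, n = 4). The MACROD2 means of these stages were 982 and 1279 CPM, in the opposite order. ADGRL1 was highest in mature RAB37 cells of 4 libraries, with 84.5, 97.4, 68.3 and 168 CPM, against 38.1, 43.2, 29.4 and 69.9 CPM in committing cells. ADGRL2 had means between 62.95 and 105.6 CPM, and maturing differed from committing cells by -0.48 ± 0.12 on the log2 scale (SD, n = 4). FLRT1 had 11, 2.29, 10 and 24.2 CPM in mature RAB37 cells, from 15, 2, 12 and 114 UMIs, and a mean of 0.867 CPM in migrating cells.

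**Figure D2:**
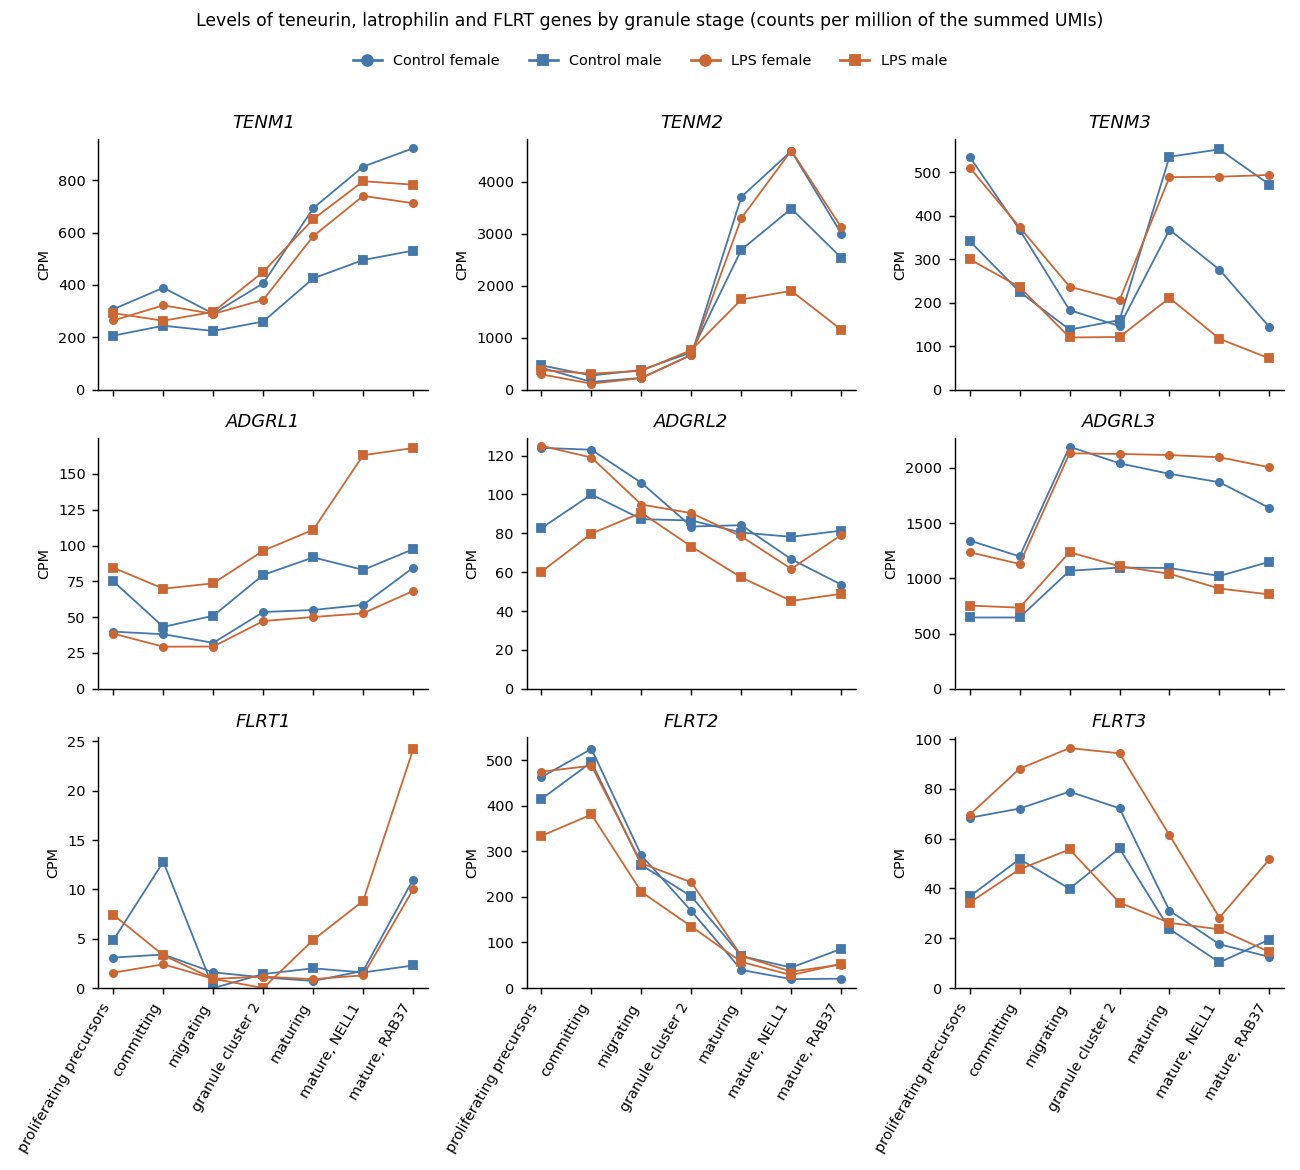
Level of each gene (CPM, linear axis from 0) in 7 granule stages, ordered from proliferating precursors to mature cells, with 1 line for each library (blue Control, orange LPS, circles female, squares male). TENM2 stays at or below 761 CPM up to granule cluster 2 and is at 1733 CPM or above in maturing cells, while FLRT2 goes from 381 to 525 CPM in committing cells to 39.8 to 70.6 CPM in maturing cells.

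Whether LPS altered these genes was tested on UMIs summed per class and fetus with the quasi-likelihood test of edgeR, where a gene was called if its log2 fold change was beyond 0.25 in either direction and its adjusted p below 0.1. Over 18 fits (all nuclei, the granule lineage, its 7 stages and 9 other classes) edgeR called 0 of 142 tests of these genes, with 1 at an unadjusted p under 0.05, and DESeq2 called 0, with 2 at an unadjusted p under 0.05. These are 0.704% and 1.41% of the tests, where 0.476% and 0.408% of the tests of all genes had such a p. Over all genes edgeR called 0% and DESeq2 0.0051% of 176330 tests. Each group has 2 fetuses, and the smallest two-sided p that an exact permutation test of 2 against 2 can give is 0.333. A missing call therefore does not show that the groups were alike. In bulk sums of a class, fewer expressing nuclei and less RNA per nucleus cannot be told apart.

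In the granule lineage none of the 9 genes had both LPS libraries above or both below both Control libraries, where 7.16% and 5.01% of 14899 genes did. The fitted log2 fold changes, LPS minus Control, ran from -0.38 to 1.34 with a median of -0.02, against a median of 0.008 over all genes. TENM1 had a log2 fold change of 0.22 (SE 0.41), TENM2 of -0.38 (SE 0.43) and TENM3 of -0.29 (SE 0.52), each with an edgeR adjusted p of 1. ADGRL1 had 50.3, 76.4, 44.1 and 125 CPM and a log2 fold change of 0.44 (SE 0.56). ADGRL2 had 91, 84.5, 91.1 and 59.1 CPM and ADGRL3 the values above, with log2 fold changes of -0.23 (SE 0.34) and -0.02 (SE 0.55). FLRT1, with 1.98, 3.22, 1.76 and 11.2 CPM, had the value of 1.34 (SE 0.96), and FLRT2 and FLRT3 had -0.19 (SE 0.38) and 0.26 (SE 0.56). All of these errors were of the size of the change or larger, except for FLRT1, whose value rests on LPS male.

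The LPS male library was outside the other 3 for each of the 9 genes in the granule lineage. It was the lowest for 6, TENM2, TENM3, ADGRL2, ADGRL3, FLRT2 and FLRT3, where 28% of all genes had it lowest. It was the highest for TENM1, ADGRL1 and FLRT1, where 23.7% of all genes had it highest. Within single stages this held only in part. TENM1 was highest in LPS male only in migrating cells and granule cluster 2, and ADGRL1 in every stage. TENM2 and ADGRL3 were lowest in LPS male only in maturing and both kinds of mature cells. FLRT2 was lowest there only in the stages before maturing, and FLRT3 only in proliferating precursors, committing cells and granule cluster 2. TENM3 was lowest there in all stages but committing, and ADGRL2 in all but migrating cells. Over all 18 fits it was lowest in 53 of 142 tests (37.3%; 25% of all genes) and highest in 37 (26.1%; 27.4% of all genes). Of the 4379 granule nuclei of this library 1435 were mature RAB37 cells, against 245 to 376 in the other libraries. The fits within single stages hold the share of each stage fixed, but not the make-up within a stage. In maturing cells the summed mature markers were 3291, 6537, 3294 and 7297 CPM, and their part in the levels was not tested.

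Within stages TENM2 in the LPS male library was again low, with 1733 CPM in maturing, 1899 CPM in mature NELL1 and 1152 CPM in mature RAB37 cells, while the LPS female library (3296, 4598 and 3121 CPM) lay within or above the Control range. The edgeR log2 fold changes were -0.36 (SE 0.54), -0.30 (SE 0.67) and -0.34 (SE 0.66), with adjusted p of 1. In this library the summed maturing markers were also lowest in maturing cells, 4526 CPM against 8551, 5515 and 9143 CPM in Control female, Control male and LPS female, and their part in the TENM2 value was not tested. Without the LPS male library the log2 fold change of TENM2 was 0.07 in maturing, 0.24 in mature NELL1 and 0.24 in mature RAB37 cells. Without Control female it was 0.03, 0.07 and -0.11 in the same stages, so that the sign in maturing and mature NELL1 cells rests on either library. In migrating cells TENM2 had no such split, at 225, 376, 221 and 361 CPM.

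**Figure D3:**
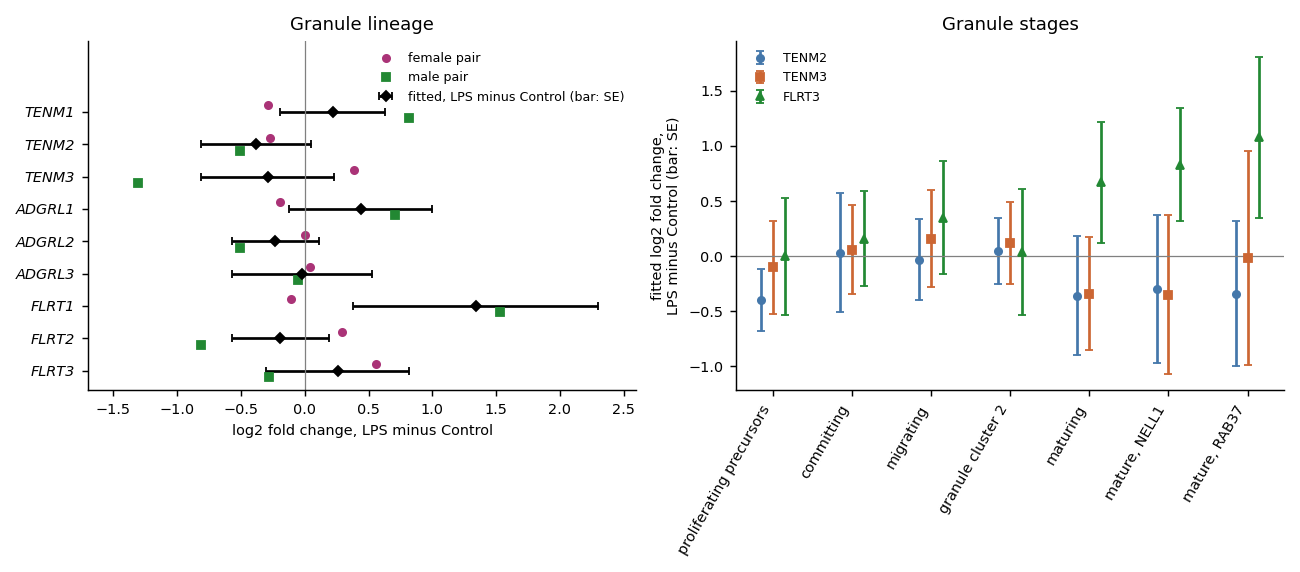
Left, log2 fold change of LPS against Control in the granule lineage for each gene, with the difference of log2(CPM + 1) within the female pair (circles), within the male pair (squares) and the edgeR estimate with a standard error derived from its F statistic (diamonds). Right, the edgeR estimates of TENM2, TENM3 and FLRT3 with their standard errors in 7 granule stages; at 2 decimals the pairs have opposite signs for 7 of 9 genes, while TENM2 is negative in both and ADGRL2 has 0.00 in the female and -0.51 in the male pair.

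Outside the granule lineage the test with an unadjusted p under 0.05 was TENM2 in endothelial cells. The libraries had 172, 289, 79.7 and 82 CPM, from 89, 62, 24 and 8 UMIs. TENM2 made up a larger share of empty droplets than of these nuclei in every library. Its share of empty droplets was lowest in LPS female. Both LPS libraries were below both Control libraries, and the edgeR log2 fold change was -1.45 (SE 0.44, unadjusted p = 0.0133, adjusted p = 0.999). Granule markers summed in these nuclei to 2204, 1917, 1209 and 3053 CPM, and their part in the result was not tested. Subtraction of free RNA left 111, 110, 56.5 and 0 CPM. TENM3 in the same cells had 50.3, 56, 16.6 and 30.7 CPM and a log2 fold change of -1.25 (SE 0.69, edgeR adjusted p = 0.999). In this class 13.5% of all genes had both LPS libraries below both Control libraries.

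TENM2 in interneuron cluster 16 had both LPS libraries above, with 587, 623, 1747 and 795 CPM and a log2 fold change of 1.09 (SE 0.54, edgeR adjusted p = 1), a pattern of 11.7% of genes there. The LPS female library was also the highest by far in interneuron cluster 18, with 810, 809, 1583 and 799 CPM, and in Purkinje cells. These 2 classes had 15 nuclei each in the LPS male library, under the minimum of 20 for a test. In the granule lineage the same library was within the Control range for TENM2.

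FLRT2 in fibroblasts, the class where it is highest, had both LPS libraries (1709 and 1596 CPM) below both Control libraries (2018 and 2134 CPM). The edgeR log2 fold change was -0.34 (SE 0.29, adjusted p = 0.999), and 13.3% of genes had this pattern there. The summed fibroblast markers were 3978, 4052, 3502 and 2793 CPM, and their part in the FLRT2 values was not tested. After subtraction of free RNA, FLRT2 was at 2202, 2356, 1873 and 1923 CPM, with the groups still apart.

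TENM1 had both LPS libraries above in fibroblasts (87.1, 28.2, 90.6 and 176 CPM) and in oligodendrocytes (114, 67.5, 122 and 216 CPM). The edgeR log2 fold changes were 1.11 (SE 0.58, adjusted p = 0.999) and 0.83 (SE 0.44, adjusted p = 1), and 13.8% and 11.7% of genes had this pattern in these classes. In both classes LPS male was the highest, as it was in empty droplets with 544 CPM. The summed granule markers in fibroblasts were 3910, 2019, 2953 and 6001 CPM, and the summed oligodendrocyte markers in oligodendrocytes 10380, 8673, 11328 and 14821 CPM, both also highest in LPS male. The oligodendrocyte cluster also had 5 of 6 markers of oligodendrocyte precursors raised. The part of these in the TENM1 values was not tested. Once free RNA was subtracted, fibroblasts had 74.8, 0, 89.3 and 87.9 CPM, where LPS female was the highest, and oligodendrocytes 107, 40, 123 and 144 CPM. In microglia and macrophages TENM1 had 51, 124, 64 and 286 CPM and a log2 fold change of 1.09 (SE 0.82, edgeR adjusted p = 1), which was called only when the LPS female library was left out (1.82, edgeR adjusted p = 0.058) and turned to -0.37 without LPS male.

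Over all 18 fits both LPS libraries were above both Control libraries in 6 of 142 tests (4.23%; 9.01% of all genes) and below in 12 (8.45%; 8.02% of all genes). ADGRL1, ADGRL3 and FLRT1 were in neither count. Within granule stages both LPS libraries were below for TENM2 in proliferating precursors, FLRT2 in committing cells and ADGRL2 in maturing and mature NELL1 cells. Of all genes 7.85, 9.32, 5.16 and 6.53% had this pattern in these stages, in the same order. Both LPS libraries were above for FLRT3 in mature NELL1 cells, as for 8.74% of all genes there.

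Female and male libraries were apart in most classes for 2 of the latrophilins. ADGRL3 in the granule lineage was at 1835 and 1888 CPM in the female and 982 and 946 CPM in the male libraries. The male values lay under those of empty droplets. After free RNA was subtracted the female libraries had 1892 and 1980 CPM and the male libraries 956 and 834 CPM. Both female libraries were above both male libraries in 9 of the 12 ordered classes and in 7 of 7 granule stages. In single fits, of which there were 18, between 20.7 and 30.7% of all genes had both female libraries above. Microglia and macrophages had the opposite order, with 276 and 391 CPM in female and 501 and 511 CPM in male libraries. These levels lie under those of empty droplets, and after free RNA was subtracted they were 195, 410, 372 and 291 CPM, where the sexes overlapped and the LPS pair had the female library above. In the granule lineage 30.7% of all genes had both female libraries above, and 11.2% had both over 1.5 times both male libraries, as ADGRL3 did.

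ADGRL1 showed the reverse. In the granule lineage the female libraries had 50.3 and 44.1 CPM and the male libraries 76.4 and 125 CPM, and 37.7% of genes had both male libraries above. Male libraries were above in 9 of 12 classes and in 7 of 7 stages. In single fits, of which there were 18, between 24.3 and 42.7% of all genes had both male libraries above. Among the other genes, FLRT1 had both male libraries above in 7 of 12 classes and 2 of 7 stages, and TENM3 had both female libraries above in 6 classes and 3 stages. ADGRL2 had the female libraries above in 5 classes and 3 stages and the male libraries above in 1 class. FLRT3 was higher in both female libraries in 5 classes and 5 stages, among them migrating cells with 78.9 and 96.4 CPM against 39.9 and 55.7 CPM. TENM2 went both ways, with the female libraries above in 3 stages and the male libraries above in 3. Subtraction of free RNA moved some of these counts. The female libraries were then above for TENM1 in 6 classes, against 1 before, for TENM2 in 6, against 3, and for FLRT2 in 3, against 0. They were above for FLRT3 in 2 classes and 4 stages and for ADGRL3 in 11 classes and 7 stages, and the male libraries for TENM2 in 1 stage, while ADGRL1 again had counts of 9 classes and 7 stages with the male libraries above. FLRT3 in empty droplets was also higher in the female libraries, with 76.4 and 109 CPM against 16.5 and 18.3 CPM. The shares of all genes, 20.7 to 30.7% with female and 24.3 to 42.7% with male libraries above, are those of single fits. Purkinje cells and interneuron cluster 18 had no fit. The share of all genes apart in as many classes or stages was not counted. All classes and stages come from the same libraries, so that such counts are not independent. With 1 fetus per sex and group, sex, depth and the mitochondrial share cannot be told apart here. Within each sex the LPS and Control libraries had ADGRL3 levels in the granule lineage that differed by 0.04 (female) and -0.05 (male) on the log2 scale.

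**Figure D4:**
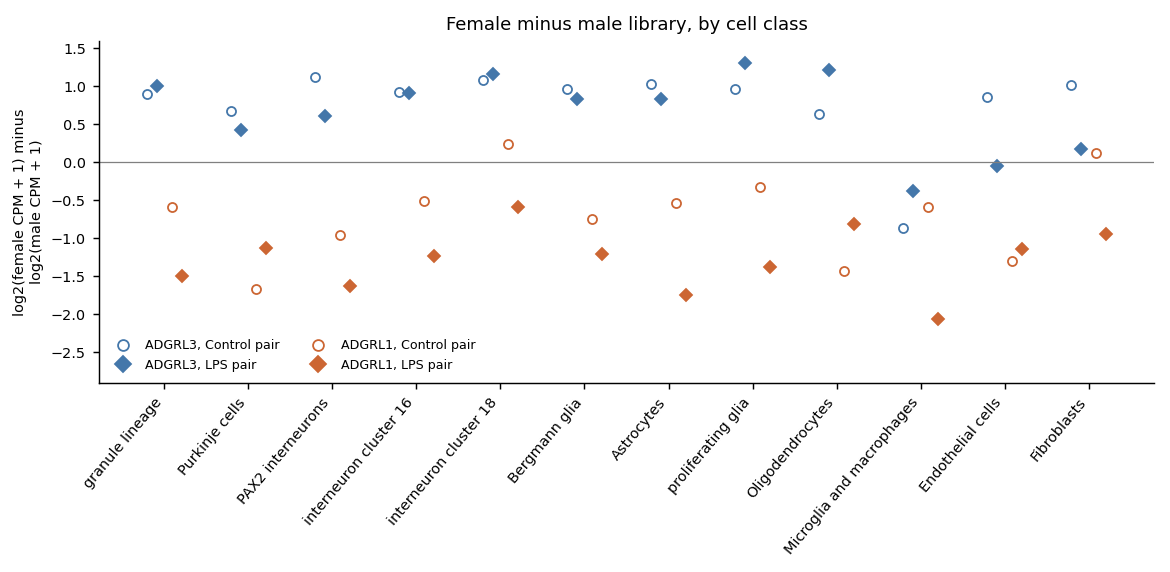
Female minus male library for ADGRL3 (blue) and ADGRL1 (orange) in 12 cell classes, as the difference of log2(CPM + 1) within the Control pair (open circles) and within the LPS pair (filled diamonds). ADGRL3 lies above 0 in both pairs in most classes and below 0 in both in microglia and macrophages (before free RNA is subtracted), and ADGRL1 lies below 0 in both pairs in all classes but interneuron cluster 18 and fibroblasts.

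The partner list held 16 genes, among them UNC5A, UNC5B, UNC5C, UNC5D, GPC3, ROBO1, FGFR1, FGFR2, FGFR3, CNTN6, SHANK1, SHANK2, SHANK3 and ADGRL4. Across the 18 fits edgeR called 0 of 233 partner tests, with 4 at an unadjusted p under 0.05, and DESeq2 called 0, with 11. These are 1.72% and 4.72% of the partner tests, above the 0.476% and 0.408% of all genes, and the fits share nuclei and fetuses, so that the tests are not independent. In the granule lineage 15 were tested, of which 5 had positive and 10 negative log2 fold changes, with a median of -0.03. The largest was that of ADGRL4 (-0.97, SE 0.52, edgeR adjusted p = 1), at 3.86, 3.88, 1.85 and 2.11 CPM. Empty droplets held more of it, with 30.3, 10.6, 20.6 and 10.1 CPM, and the part of free RNA in the result was not tested. Of the 15 partners tested it was the only one with both LPS libraries below in this lineage, where 5.01% of all genes had this pattern.

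FGFR1, a growth factor receptor that FLRT proteins bind, had 126, 153, 72.7 and 410 CPM and a log2 fold change of 0.80 (SE 0.80). CNTN6, a contactin that binds latrophilin 1, had 576, 297, 506 and 1008 CPM and a log2 fold change of 0.77 (SE 0.55). SHANK3, a scaffold of the receiving side of synapses, had 31.9, 48.1, 21.9 and 109 CPM and a value of 0.72 (SE 0.77). For these 3 the LPS male library was far above the rest and LPS female was within or below the Control range. Empty droplets held 225, 249, 127 and 908 CPM of CNTN6, also highest in LPS male, as were FGFR1 with 120, 131, 88.6 and 167 CPM and SHANK3 with 16.6, 38.4, 15.4 and 41.6 CPM. UNC5D, with 505, 244, 410 and 716 CPM, had a value of 0.56 (SE 0.53), and UNC5A, with 27.4, 106, 32.8 and 43.5 CPM, one of -0.76 (SE 0.64). Empty droplets held 227, 349, 120 and 927 CPM of UNC5D and 4.32, 29.5, 2.57 and 11.6 CPM of UNC5A, so that the library with the highest level was also the highest there for both. The part of free RNA in these values was not tested.

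The genes with the most similar levels were sought over the mean log2(CPM + 1) of 13 named classes, among 10329 genes. The classes share libraries, depth and free RNA, and they include the small mural and choroid clusters, so Pearson's r is given as a description. TENM1 was closest to IL16 (r = 0.968) and CHGB (0.958), TENM2 to SLC27A3 (0.893) and ABL2 (0.891), and TENM3 to ATP5PD (0.972) and CYB5D1 (0.970). ADGRL1 was closest to RAB9B (0.930) and DECR2 (0.914), ADGRL2 to AP1S3 (0.958) and CARD10 (0.926), and ADGRL3 to NLGN4X (0.948) and ELMOD2 (0.929). The highest class of both genes near ADGRL2 was endothelial cells, as for ADGRL2 itself, while both genes near TENM1 and near ADGRL1 were highest in unipolar brush cells, and both near TENM2, ATP5PD and SYT10 in the choroid cluster. FLRT1 was closest to NKAIN4 (0.909) and SEMA3D (0.886), FLRT2 to SYT10 (0.908) and CCN4 (0.899), and FLRT3 to NTF3 (0.942) and RBFOX3 (0.924), both highest in the granule lineage.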

How the data were processed

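Single-nucleus libraries of 4 fetuses were analysed. The authors deposited UMI counts per gene and barcode for all barcodes of the 10x list, counted against Mmul_8.0.1 with introns included and neither filtered, pooled nor normalized. The submitters' processing notes and the file headers name Cell Ranger 4, while the protocol names another version. Ambient RNA removal, described in the methods, is not in these counts. No reference genome was used, and the sequences of the proteins are not printed here.

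Nuclei were barcodes in which 500 genes or more were seen and mitochondrial UMIs made up no more than 5%. Libraries were integrated in Seurat 5.3.0 (R 4.3.3) on 1996 of 2000 variable features, the 10 genes left out, with 30 dimensions and a resolution of 0.5, and granule nuclei were clustered once more. Clusters were named from marker lists. Doublets were called by Scrublet in scanpy 1.11.5 and kept in the main values. With N nuclei in a library, its empty droplets were N barcodes, taken by falling UMI total from rank 3N onward. The free share of a class was the 0.25 quantile of the ratio of other classes' markers in the class to those in empty droplets. Where a class had few nuclei in a library, the median share of that library's larger classes was taken instead. This was so in every library for Purkinje, endothelial, unipolar brush, mural and choroid cells, microglia, proliferating glia and both interneuron clusters. It also held for fibroblasts in LPS male and oligodendrocytes in Control male and LPS female.

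UMIs were summed per class and library. Fits with at least 20 nuclei in every library used edgeR 4.0.16 (filterByExpr, TMM, glmQLFTest, Benjamini-Hochberg over all genes of the fit), without covariates. The standard error (SE) of an edgeR log2 fold change is not given by the test. It was taken as the absolute change divided by the square root of the F statistic. DESeq2 1.42.0 was the other tool, and both were tested on simulated data. Log2 differences between stages or libraries used a pseudocount of 1 CPM. All 10 genes were named, and of the 16 partner genes the 6 with the largest absolute log2 fold change in the granule lineage. Some genes of the partner list are not reported here by name. The similar genes are the 2 with the highest Pearson correlation among those with at least 20 CPM in a class. The genes and lists were chosen with earlier results of these data known. Intervals are exact Poisson intervals (95%) and cover counting error only. Each library is 1 fetus. In the fits without covariates the spread within a group is that between its female and its male fetus. The p-values are measured against this spread, in which sex, depth and the mitochondrial share cannot be told apart. Alternatives were DESeq2, RLE size factors, no count filter, at least 1000 genes per nucleus, doublets removed, free RNA subtracted, sex as a term and each library left out.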

Additional observations from a re-analysis of the deposited data

Results flagged for a closer look

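At 2 decimals, for 7 genes the difference between LPS and Control in the granule lineage had opposite signs in the female and the male pair, as log2(CPM + 1) of the LPS minus the Control library. TENM1 had -0.29 in the female and 0.82 in the male pair. TENM3 had 0.39 in the female and -1.31 in the male pair. FLRT2 had 0.29 and -0.81, and FLRT3 had 0.56 and -0.28, in the same order. ADGRL1 had -0.19 and 0.71, FLRT1 had -0.11 and 1.53, and ADGRL3, the smallest, had 0.04 and -0.05. ADGRL2 had 0.00 and -0.51. The difference between the pairs was not tested, since each pair is 1 fetus against 1. In each case the LPS male library was the lowest or the highest of the 4, although not always the farthest from the rest.

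In empty droplets FLRT1 had 1.28 CPM in the LPS female and 3.62 CPM in the LPS male library, above the 1.08 and 1.18 CPM of the Control female and Control male libraries. They come from 3, 2, 2 and 14 UMIs in Control female, Control male, LPS female and LPS male, so that the LPS female value rests on 2 UMIs.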

How the results depend on the processing

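No gene of the set was called under any alternative with all 4 libraries. The edgeR test was replaced by DESeq2 or run with RLE size factors, no count filter, at least 1000 genes per nucleus, doublets removed, free RNA subtracted, sex as a second term (1 Control and 1 LPS fetus paired within each sex) and, added after seeing the data, all nuclei without the unnamed clusters. No log2 fold change reversed under these in 105 comparisons, and no level moved by more than the spread between libraries in 54. The fold changes compared were those of the 9 genes in the granule lineage and a few in other units, named below, and not all 142 tests.

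The class or stage with the highest mean was the same for 9 of 9 genes with at least 1000 genes per nucleus, without doublets and with free RNA subtracted. Without Control female it was Purkinje cells for TENM2 and ADGRL1, mature NELL1 cells for TENM1 and maturing cells for TENM3, so that it was the same for 7 genes by class and 7 by stage. Without LPS male it was oligodendrocytes for FLRT1, maturing cells for TENM3 and granule cluster 2 for FLRT3.

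Leaving out each library in turn reversed 17 of these log2 fold changes, left 42 the same and made 1 stronger. In the granule lineage they ranged from -0.13 to 0.73 for TENM1, -0.77 to -0.03 for TENM2, -1.18 to 0.25 for TENM3, -0.51 to 1.00 for ADGRL1, -0.58 to 0.05 for ADGRL2, -0.60 to 0.62 for ADGRL3, -0.54 to 2.13 for FLRT1, -0.72 to 0.19 for FLRT2 and -0.60 to 0.80 for FLRT3. TENM2 ranged from -1.0 to 0.07 in maturing, -1.20 to 0.24 in mature NELL1 and -1.34 to 0.24 in mature RAB37 cells, and from -1.71 to -1.09 in endothelial cells. TENM3 ranged from -1.17 to 0.17 in maturing cells, and TENM1 from -0.37 to 1.82 in microglia and macrophages. Several reversals lie inside these ranges, among them 0.40 for ADGRL3 without LPS male, -0.02 for FLRT3 without Control male and 0.03 for TENM2 in maturing cells without Control female. The number of calls in the other classes ranged from 0 to 1, the call being TENM1 in microglia and macrophages without the LPS female library. Such a fit has 1 fetus in an arm and assumes that it varies like the others.

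The precision is limited by 2 fetuses per group and, in classes of few nuclei, by depth, with 15 Purkinje nuclei in LPS male and at most 36 FLRT1 UMIs per library in interneuron cluster 18.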
